A study of Mus musculus with 4 samples.

Results

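The genes described here are 56 genes of glycolysis, gluconeogenesis and glycogen metabolism, with the pyruvate dehydrogenase complex, the entry steps of fructose and galactose and the receptors for glucagon and insulin. They were picked by gene symbol, matched without regard to letter case. No value entered this rule, but the list of genes was chosen with earlier results of these data known. The share that follows is therefore a description only. Of the 56, 33 are listed in at least 1 of the 4 deposited comparisons (58.9%), whereas 14.0% of 21900 RefSeq protein-coding genes are, although many of these may not be expressed in liver. All 4 comparisons together list 3113 genes.

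Liver RNA came from CypD-/- and WT mice. In CypD-/- mice *Ppif*, the gene of the mitochondrial matrix protein cyclophilin D, was disrupted in all tissues on a C57BL/6 background. The 4 groups were CypD-/- mice and WT mice given 40 mg/kg LPS, a bacterial endotoxin, and CypD-/- mice and WT mice given PBS, here called untreated, each sampled 24 h after the injection. The mice were described as males of 16 to 20 weeks, and RNA of 3 animals was pooled into 1 library per group. Each comparison therefore set 1 library against 1 other, no spread between replicates could be measured, and no fold below has an error.

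The liver takes up glucose after a meal, stores it as glycogen or burns it to pyruvate by glycolysis, and releases glucose during fasting from glycogen and by gluconeogenesis. Glycolysis and gluconeogenesis share most of their enzymes, and a few one-way steps decide the net direction. Insulin favours storage and glucagon favours release. Endotoxin is known for disturbing this balance, with loss of liver glycogen and, late in severe shock, low blood glucose.

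The deposited comparisons give a signed fold for each gene that passed the authors' criteria, a fold above 1.5 and a false discovery rate (q-value) below 0.05 by Kal's test, which compares the proportions of reads in 2 libraries. A gene is described as having risen, fallen or differed only where a comparison lists it, and absence from a comparison leaves a gene without a value rather than showing that it stayed the same. Depth is unknown, because the files hold neither counts nor levels. Where folds link a library to that of untreated WT mice, they were multiplied to give a level relative to untreated WT mice, which are set to 1.

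The library of LPS-treated WT mice stood apart in ways that bear on both comparisons that use it. Of 4 Y-linked genes, 3 fell after LPS in WT mice, by 13.6- to 24.9-fold, and none is listed after LPS in CypD-/- mice, although all mice were described as males. The targeted gene *Ppif* was 2.72-fold lower in CypD-/- than in WT mice without LPS and is not listed between the LPS-treated groups, after a 2.20-fold fall in WT mice. The paper reports from read alignments that some exons of *Ppif* are deleted in CypD-/- mice. Whether reads of its other exons entered these folds was not tested. Of 10 hepatocyte markers, 1 rose and 5 fell after LPS in CypD-/- mice, and 1 rose and 6 fell in WT mice. Of 14 neutrophil markers, 4 rose in each genotype. Of 13 monocyte and macrophage markers, 3 rose and none fell after LPS in CypD-/- mice, whereas 1 rose and 4 fell in WT mice. Of 5 Kupffer cell markers, 1 rose and 1 fell in CypD-/- mice and 3 fell in WT mice. Of 8 endothelial markers, 1 rose and 1 fell in CypD-/- mice and 2 rose and 2 fell in WT mice. Of 8 erythroid markers 1 fell in each genotype, and of 5 cholangiocyte markers 1 rose in WT mice. No marker of stellate cells or lymphocytes, 7 genes each, is listed anywhere. In RNA of whole liver, fewer cells of a type and less RNA per cell cannot be told apart, and the part of cell composition or of the pooled animals in the folds below was not tested.

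After LPS, more listed members fell than rose in each genotype. In CypD-/- mice 5 of the 33 listed members rose (15.2%) and 16 fell (48.5%), whereas of all 3113 genes listed anywhere 14.4% rose and 32.1% fell. In WT mice 6 rose (18.2%) and 22 fell (66.7%), beside 29.2% and 62.1% of all listed genes. The share that rose in CypD-/- mice and the share that fell in WT mice were thus close to those of all listed genes. The median fold of the members was 2.43 in CypD-/- and 3.80 in WT mice, beside 2.54 and 3.74 for all genes of these comparisons.

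Between the LPS-treated groups, 13 members were higher in CypD-/- than in WT mice (39.4%) and 2 were lower (6.06%), beside 19.1% and 11.8% of all listed genes. Between the untreated groups, 3 members were higher in CypD-/- mice (9.09%) and 3 lower (9.09%), beside 2.79% and 5.08%. With 3 genes each, the last shares are imprecise. With a q-value of at most 0.001, 7 members remained higher and 1 lower between the LPS-treated groups. The shares of all listed genes at this cut were not calculated, so these 2 counts cannot be set beside the shares above. Markers differed in the same comparison: of 10 hepatocyte markers 4 were higher and 1 lower in CypD-/- mice, of 8 erythroid markers 3 were higher, of 5 Kupffer cell markers 1 was higher, of 8 endothelial markers 1 was lower, and 2 of 4 Y-linked genes were 14.3- and 29.2-fold higher. No neutrophil or monocyte and macrophage marker is listed there. Between the untreated groups, 2 hepatocyte, 2 Kupffer cell and 1 monocyte and macrophage markers were lower in CypD-/- mice, and 1 erythroid marker and 1 Y-linked gene were higher. The part of these markers in the members' folds was not tested. The comparison of the LPS-treated groups shares the library of LPS-treated WT mice with the LPS comparison in WT mice, so the folds of these comparisons are not independent.

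**Figure D1:**
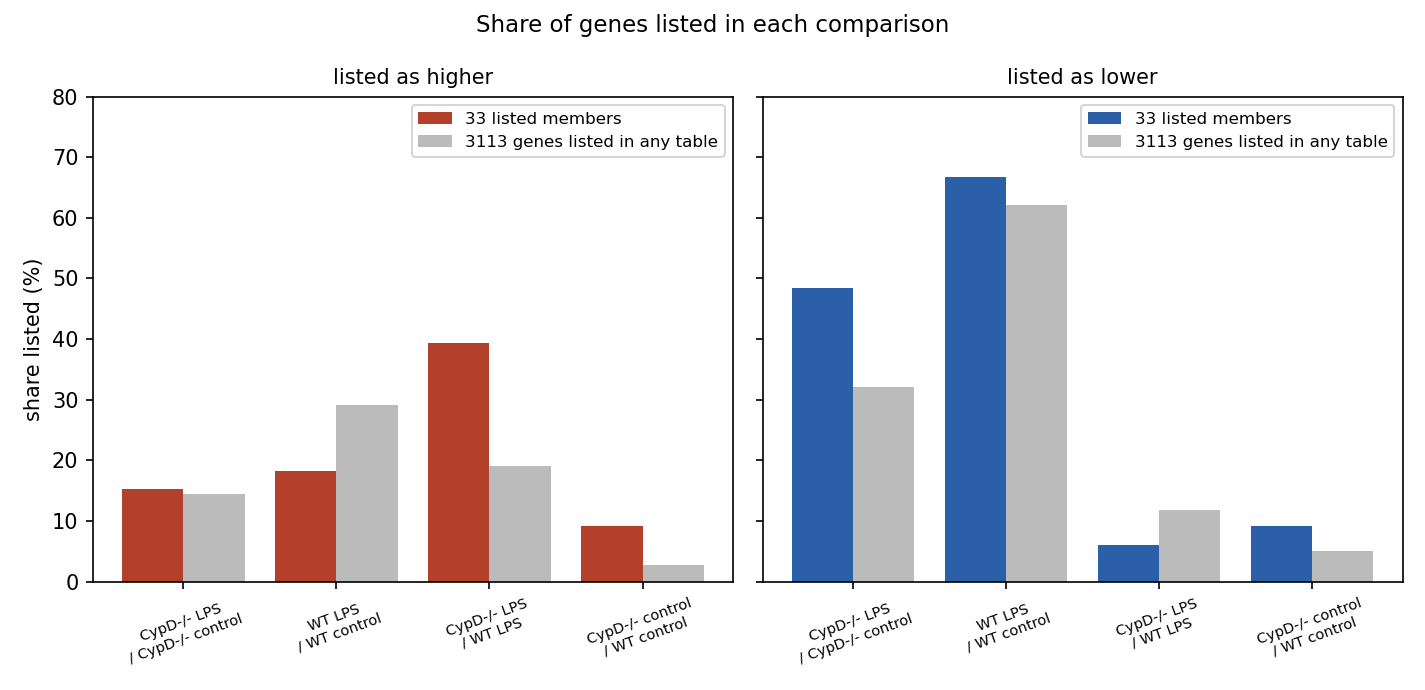
Share of genes listed as higher (left) and lower (right) in each of the 4 comparisons, in percent, for the 33 listed members (coloured bars) and for all 3113 genes listed in any comparison (grey bars). The members listed as higher between the LPS-treated groups make up 39.4%, beside 19.1% of all listed genes, and number 13, or 7 with a q-value of at most 0.001. The share of all listed genes at that q-value was not calculated.

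**Figure D2:**
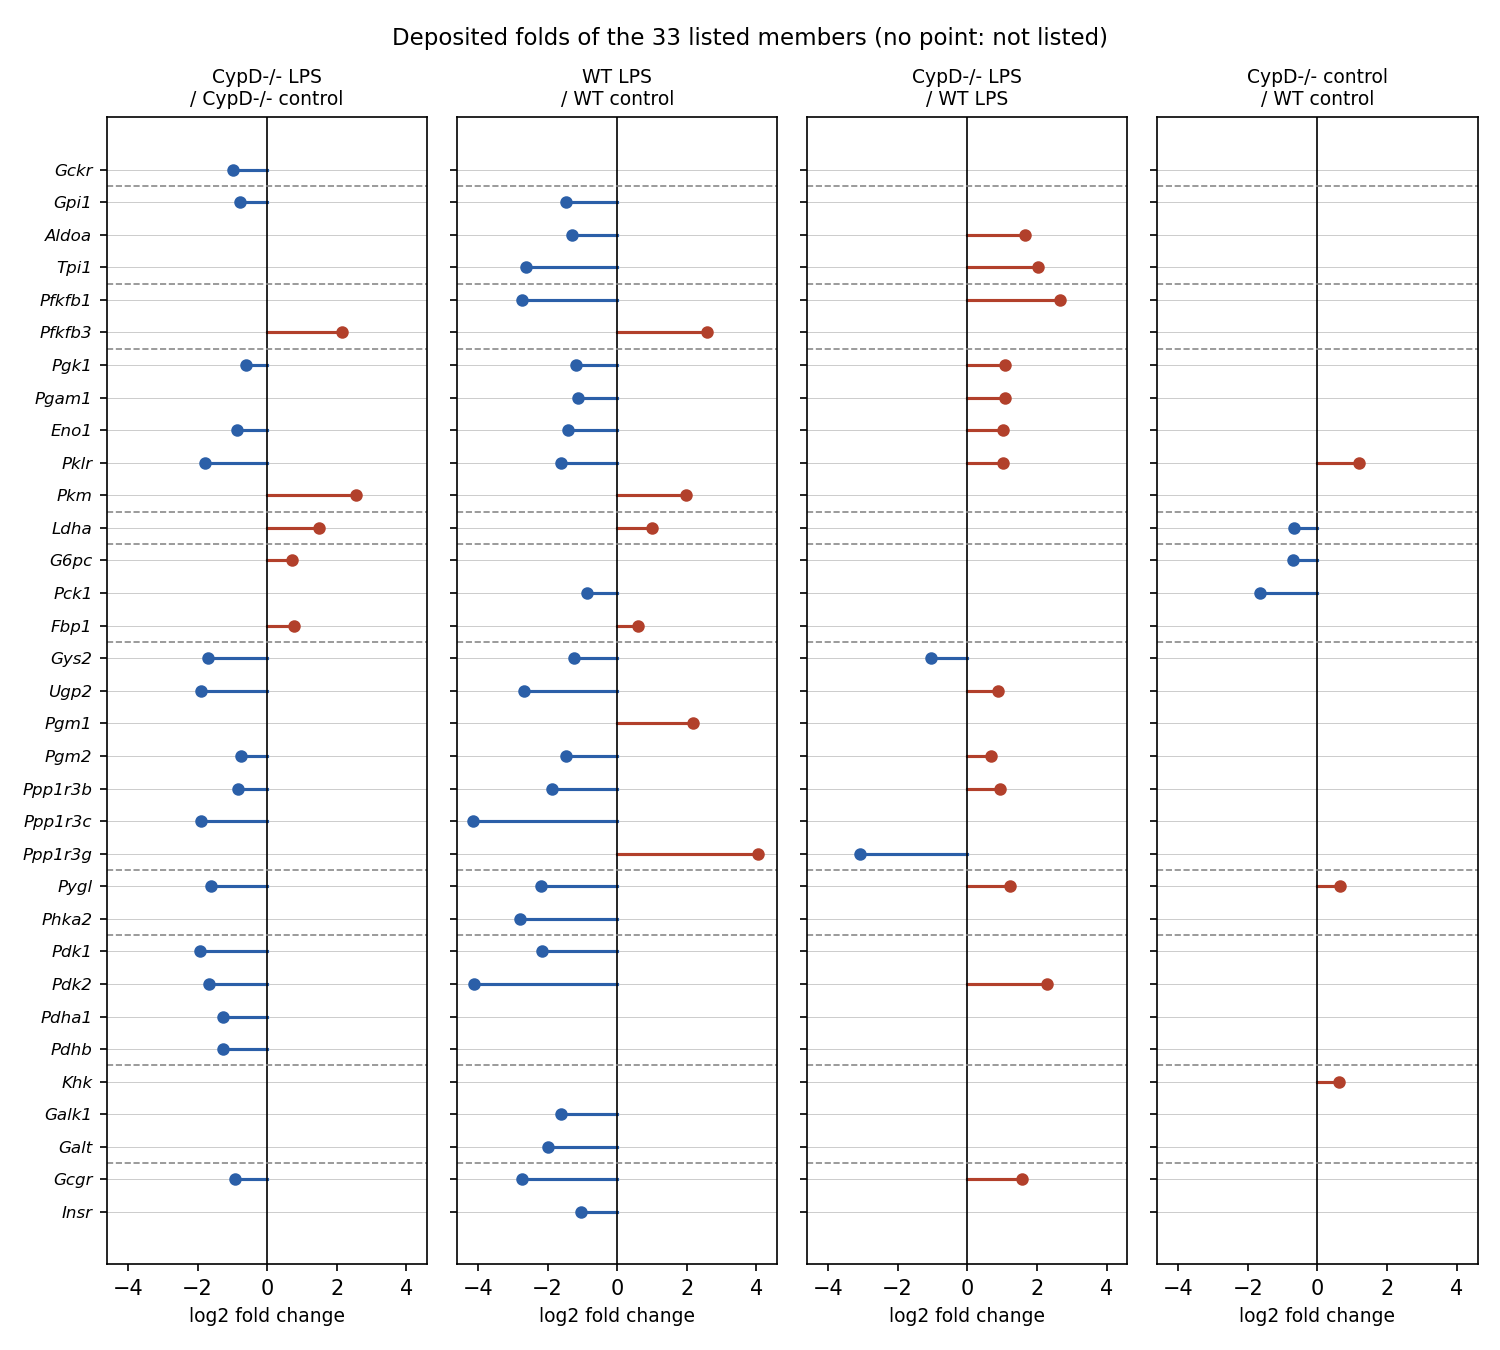
log2 fold change of the 33 listed members in the 4 comparisons, 1 panel each, with rises in red and falls in blue. Dashed lines separate the roles, from glucose phosphorylation at the top to hormone receptors at the bottom, and a gene without a point is not listed in that comparison.

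The promoters of 5 members are shown as examples, which are not typical of the members in their motifs. *Pfkfb3*, *Ldha* and *Ppp1r3g* rose in WT mice, and *Pgk1* fell in both genotypes. *Pck1* had the largest difference of a member between the untreated groups. Each is the 150 bases before the RefSeq start on GRCm38.p6, read 5′ to 3′ along the gene's strand. *Ldha* and *Pfkfb3* have 2 RefSeq windows each, of which the first in the table is shown. The other *Ldha* window holds neither motif, and the other *Pfkfb3* window holds ACGTG but not TGACGT. Capitals mark ACGTG, the core of the hypoxia response element, and TGACGT, the core of the cAMP response element, each on either strand.
*Pfkfb3* (chr2:11553930-11554079, minus strand): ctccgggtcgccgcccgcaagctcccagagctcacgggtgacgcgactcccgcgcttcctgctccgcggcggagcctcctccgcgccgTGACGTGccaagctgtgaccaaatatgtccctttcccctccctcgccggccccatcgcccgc
*Ldha* (chr7:46845654-46845803, plus strand): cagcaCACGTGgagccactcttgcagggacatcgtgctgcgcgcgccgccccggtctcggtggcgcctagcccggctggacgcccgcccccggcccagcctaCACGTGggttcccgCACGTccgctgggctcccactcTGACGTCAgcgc
*Ppp1r3g* (chr13:35967756-35967905, plus strand): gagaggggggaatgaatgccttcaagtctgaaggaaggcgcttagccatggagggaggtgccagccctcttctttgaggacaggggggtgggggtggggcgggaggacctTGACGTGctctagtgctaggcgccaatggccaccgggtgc
*Pgk1* (chrX:106186950-106187099, plus strand): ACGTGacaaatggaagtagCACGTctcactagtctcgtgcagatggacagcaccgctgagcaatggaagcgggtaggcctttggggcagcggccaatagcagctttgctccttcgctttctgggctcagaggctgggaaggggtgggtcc
*Pck1* (chr2:173152923-173153072, plus strand): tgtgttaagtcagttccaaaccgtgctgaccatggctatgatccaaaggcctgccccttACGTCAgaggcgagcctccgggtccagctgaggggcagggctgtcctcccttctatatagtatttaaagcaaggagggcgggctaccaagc

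In *Pfkfb3* and *Ppp1r3g* the 2 motifs overlap in 1 run of capitals, whereas *Ldha* holds several separate matches and *Pck1* a single match to the cAMP element 91 to 86 bases before its start. RefSeq windows were found for 53 of the 56 members. In the 250 bases before the start, ACGTG occurred in 30 of 76 windows of members (39.5%) and in 16.6% of all 32851 windows. It occurred in 6 of 9 windows of members that rose in WT mice, in 11 of 31 of those that fell and in 11 of 31 of members listed in no comparison. TGACGT occurred in 6 of 76 windows of members (7.89%), close to the 6.47% of all windows, and in 3 of 9, 1 of 31 and 1 of 31 of the same subsets. CACGTG, the E-box, contains ACGTG on both strands and occurred in 13 of 76 windows of members (17.1%) and in 6.02% of all. GTAAACA, an insulin response sequence bound by FOXO factors, occurred in 1 of 76 windows of members and in 3.17% of all. A match is a string of letters, not a site, and the several windows of 1 gene can overlap. The windows of all 27025 genes were neither restricted to protein-coding genes nor matched to the members for base composition. The shares are therefore a description only.

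Glucose phosphorylation was represented in a single comparison. *Gckr*, which encodes the regulatory protein that holds the liver's glucose-phosphorylating enzyme inactive in the nucleus, fell 1.98-fold after LPS in CypD-/- mice and is not listed in WT mice. *Hk1*, *Hk2* and *Hk3*, the hexokinases of other tissues and blood cells, are not listed in any comparison.

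Among the enzymes of upper glycolysis, *Gpi1*, *Aldoa* and *Tpi1* fell in WT mice. *Tpi1*, which interconverts the triose phosphates (chromosome 6, 124810586 to 124814296 of GRCm38), fell 6.17-fold in WT mice, has no LPS fold in CypD-/- mice, and was 4.07-fold higher in CypD-/- than in WT mice after LPS. Its level was 0.660 in LPS-treated CypD-/- mice and 0.162 in LPS-treated WT mice. *Aldoa*, the aldolase of muscle and most other tissues, fell 2.46-fold in WT mice and was 3.19-fold higher in LPS-treated CypD-/- mice, at levels of 1.29 in LPS-treated CypD-/- and 0.406 in LPS-treated WT mice. Both transcripts were thus closer to the untreated WT level in CypD-/- than in WT mice after LPS. *Gpi1*, the isomerase that follows glucose phosphorylation, fell 1.72-fold in CypD-/- and 2.77-fold in WT mice. *Pfkl*, *Pfkm*, *Pfkp* and *Aldoc* are not listed.

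The enzymes that set fructose 2,6-bisphosphate, the main activator of phosphofructokinase, moved in opposite directions. *Pfkfb3* (chromosome 2, 11471433 to 11554077), the inducible isoform with strong kinase activity, rose 4.40-fold in CypD-/- and 5.98-fold in WT mice. It is not listed in either comparison between the genotypes. *Pfkfb1* (chromosome X, 150588229 to 150643878), the isoform of liver and muscle, fell 6.63-fold in WT mice but has no LPS fold in CypD-/- mice. LPS-treated CypD-/- mice had 6.39-fold more *Pfkfb1* mRNA than LPS-treated WT mice, at a level of 0.964 in LPS-treated CypD-/- and 0.151 in LPS-treated WT mice. *Pfkfb2* and *Pfkfb4* are not listed.

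In lower glycolysis, 4 of 6 enzymes fell and 1 rose in WT mice, and 3 fell and 1 rose in CypD-/- mice. With 5 of the 6 listed anywhere, shares would be imprecise. Of all listed genes, 62.1% fell and 29.2% rose in WT mice, and 32.1% fell and 14.4% rose in CypD-/- mice. The 4 that fell in WT mice were each about 2-fold higher in CypD-/- than in WT mice after LPS: *Pgk1* 2.11-fold, *Pgam1* 2.12-fold, *Eno1* 2.03-fold and *Pklr* 2.02-fold. *Pgk1*, phosphoglycerate kinase, fell 1.53-fold in CypD-/- and 2.27-fold in WT mice. *Eno1*, enolase, fell 1.84- and 2.65-fold in CypD-/- and WT mice, in that order. *Pgam1*, the mutase between them, fell 2.17-fold in WT mice but has no LPS fold in CypD-/- mice. The levels of *Pgk1* were 0.932 in LPS-treated CypD-/-, 0.441 in LPS-treated WT and 1.43 in untreated CypD-/- mice, and those of *Eno1* 0.768, 0.377 and 1.41. The higher levels after LPS in CypD-/- mice thus went with a higher derived level before LPS, although neither gene is listed between the untreated groups.

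The pyruvate kinases of liver and of other tissues went in opposite directions. *Pklr* (chromosome 3, 89136142 to 89146784), the pyruvate kinase of liver and red cells, fell 3.46-fold in CypD-/- and 3.05-fold in WT mice. It was 2.29-fold higher in CypD-/- than in WT mice without LPS, and its levels were 0.662 in LPS-treated CypD-/-, 0.328 in LPS-treated WT and 2.29 in untreated CypD-/- mice. The difference between the LPS-treated groups was thus of about the size of the difference between the untreated groups. Of 8 erythroid markers, *Hbb-b1* was 1.64-fold higher in CypD-/- than in WT mice without LPS, and *Hba-a2*, *Hbb-b1* and *Alas2* were 1.78-, 1.86- and 6.35-fold higher after LPS, and their part in the *Pklr* folds was not tested. *Pkm* (chromosome 9, 59656368 to 59679375), the pyruvate kinase of muscle, leukocytes and proliferating cells, rose 5.82-fold in CypD-/- and 3.94-fold in WT mice. *Pkm* is expressed by leukocytes, whose markers moved in different ways. Of 14 neutrophil markers, 4 rose in each genotype and 10 are not listed, and of 13 monocyte and macrophage markers, 3 rose and none fell in CypD-/- mice, whereas 1 rose and 4 fell in WT mice. Their part in the *Pkm* folds was not tested.

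*Ldha* (chromosome 7, 46841475 to 46855627), which interconverts pyruvate and lactate, rose 2.79-fold in CypD-/- and 2.0-fold in WT mice. It was 1.59-fold lower in CypD-/- than in WT mice without LPS. Its levels were 1.75 in LPS-treated CypD-/-, 2.0 in LPS-treated WT and 0.628 in untreated CypD-/- mice, so the larger fold in CypD-/- mice started from a lower level and did not end at a higher one. The derived fold between the LPS-treated groups, 1.14-fold lower in CypD-/- mice, is below the criterion of 1.5. *Ldhb* and *Gapdh* are not listed.

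Of 7 genes of gluconeogenesis, 2 rose in CypD-/- mice, and 1 rose and 1 fell in WT mice, after LPS. With 3 of the 7 listed anywhere, shares would be imprecise. Of all listed genes, 14.4% rose in CypD-/- mice, and 29.2% rose and 62.1% fell in WT mice. *Fbp1* (chromosome 13, 62864753 to 62888282), the liver's fructose 1,6-bisphosphatase, rose 1.72-fold in CypD-/- and 1.51-fold in WT mice. The WT fold is close to the criterion. *G6pc*, the catalytic subunit of glucose 6-phosphatase that releases free glucose (chromosome 11, 101367561 to 101377903), was 1.63-fold lower in CypD-/- than in WT mice without LPS and rose 1.63-fold after LPS in CypD-/- mice. The level of *G6pc* was 0.999 in LPS-treated CypD-/- and 0.612 in untreated CypD-/- mice, and it is not listed after LPS in WT mice. *Pck1* (chromosome 2, 173153048 to 173159273), the cytosolic phosphoenolpyruvate carboxykinase, fell 1.83-fold in WT mice but has no LPS fold in CypD-/- mice. It was 3.14-fold lower in CypD-/- than in WT mice without LPS, the largest difference of a member between the untreated groups, with levels of 0.319 in untreated CypD-/- and 0.546 in LPS-treated WT mice. *Pck1* and *G6pc*, both induced by fasting and glucagon and repressed by insulin, were thus lower in CypD-/- mice without LPS. Chow was given freely, and food intake is not given in the sources used here. *G6pc3*, *Pck2*, *Fbp2* and *Pcx* are not listed.

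In glycogen synthesis, 5 of 9 genes fell in each genotype, none rose in CypD-/- and 2 rose in WT mice. With 7 of the 9 listed anywhere, shares would be imprecise. Of all listed genes, 32.1% fell and 14.4% rose in CypD-/- mice, and 62.1% fell and 29.2% rose in WT mice. *Gys2* (chromosome 6, 142422613 to 142473109), the liver glycogen synthase, fell 3.26-fold in CypD-/- and 2.37-fold in WT mice and was 2.05-fold lower in CypD-/- than in WT mice after LPS. Its levels were 0.206 in LPS-treated CypD-/-, 0.421 in LPS-treated WT and 0.670 in untreated CypD-/- mice, so it was lower in CypD-/- mice with and without LPS. The derived fold between the untreated groups, 1.49-fold lower in CypD-/- mice, lies just under the criterion. *Gys2* and *Ppp1r3g* were the members listed as lower in CypD-/- than in WT mice after LPS.

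Of the enzymes that supply UDP-glucose, *Ugp2* and *Pgm2* fell in both genotypes and were higher in CypD-/- than in WT mice after LPS. *Ugp2* (chromosome 11, 21321138 to 21371201), which makes UDP-glucose, fell 3.70-fold in CypD-/- and 6.35-fold in WT mice and was 1.84-fold higher in CypD-/- than in WT mice after LPS, with levels of 0.290 in LPS-treated CypD-/-, 0.158 in LPS-treated WT and 1.07 in untreated CypD-/- mice. *Pgm2*, a phosphoglucomutase, fell 1.69-fold in CypD-/- and 2.80-fold in WT mice and was 1.61-fold higher in CypD-/- than in WT mice after LPS, with levels of 0.575, 0.357 and 0.971 in the same order of groups. *Pgm1* rose 4.49-fold in WT mice with a q-value of 0.0314 by Kal's test and is listed nowhere else. The names Pgm1 and Pgm2 were exchanged in mouse nomenclature and RefSeq gives each as a synonym of the other, so which locus each of these 2 rows stands for is not known.

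The subunits that bring protein phosphatase 1 to glycogen, where it activates glycogen synthase, included the largest fold of a member. *Ppp1r3c* (chromosome 19, 36731731 to 36736653) fell 3.75-fold in CypD-/- mice, with a q-value of 0.0305 by Kal's test, and 17.8-fold in WT mice. *Ppp1r3b*, abundant in liver, fell 1.79-fold in CypD-/- and 3.66-fold in WT mice and was 1.93-fold higher in CypD-/- than in WT mice after LPS, with levels of 0.528 in LPS-treated CypD-/-, 0.273 in LPS-treated WT and 0.943 in untreated CypD-/- mice. *Ppp1r3g* (chromosome 13, 35958839 to 35970388), whose mRNA increases in fasted mouse liver, rose 16.4-fold in WT mice but has no LPS fold in CypD-/- mice. LPS-treated CypD-/- mice had 8.50-fold less *Ppp1r3g* mRNA than LPS-treated WT mice, at a level of 1.93 in LPS-treated CypD-/- and 16.4 in LPS-treated WT mice. The subunits of 1 family thus differed in direction within WT mice. *Gyg*, glycogenin, and *Gbe1*, the branching enzyme, are not listed.

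On the side of breakdown, *Pygl* (chromosome 12, 70190811 to 70231488), the liver glycogen phosphorylase, fell 3.04-fold in CypD-/- and 4.55-fold in WT mice. It was 1.56-fold higher in CypD-/- than in WT mice without LPS and 2.34-fold higher between the LPS-treated groups, with levels of 0.513 in LPS-treated CypD-/-, 0.220 in LPS-treated WT and 1.56 in untreated CypD-/- mice. Phosphorylase and synthase of liver thus both fell after LPS, but lay on opposite sides of WT mice in CypD-/- mice. *Phka2*, the liver regulatory subunit of phosphorylase kinase, fell 6.89-fold in WT mice with a q-value of 0.0177 by Kal's test. *Pygb*, *Phkb* and *Phkg2* are not listed.

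Pyruvate dehydrogenase commits pyruvate to oxidation, and its kinases switch it off. *Pdk2* (chromosome 11, 95026258 to 95041354), a kinase abundant in liver, fell 3.19-fold in CypD-/- and 17.2-fold in WT mice and was 4.88-fold higher in CypD-/- than in WT mice after LPS. Its levels were 0.283 in LPS-treated CypD-/-, 0.0580 in LPS-treated WT and 0.904 in untreated CypD-/- mice. *Pdk1*, a kinase induced by hypoxia, fell 3.80-fold in CypD-/- and 4.50-fold in WT mice. *Pdha1* and *Pdhb*, the subunits of the dehydrogenase itself, fell 2.42- and 2.43-fold in CypD-/- mice and are not listed in WT mice, whereas *Pdhx*, *Dlat* and the phosphatase subunit *Pdp2* are not listed at all. The subunits thus have LPS folds in CypD-/- mice and none in WT mice, and the difference between the genotypes was not tested.

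Entry of other sugars and the hormone receptors completed the set. *Khk*, the fructokinase, is listed between the untreated groups only, 1.54-fold higher in CypD-/- mice. *Galk1* and *Galt*, the kinase and transferase of galactose breakdown, fell 3.06- and 3.94-fold in WT mice. *Gcgr* (chromosome 11, 120530699 to 120538986), the glucagon receptor, fell 1.88-fold in CypD-/- and 6.60-fold in WT mice and was 3.0-fold higher in CypD-/- than in WT mice after LPS. Its levels were 0.454 in LPS-treated CypD-/-, 0.151 in LPS-treated WT and 0.854 in untreated CypD-/- mice. *Insr*, the insulin receptor, fell 2.08-fold in WT mice. Transcripts of both receptors were therefore lower after LPS in WT mice, that of glucagon by the larger fold.

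**Figure D3:**
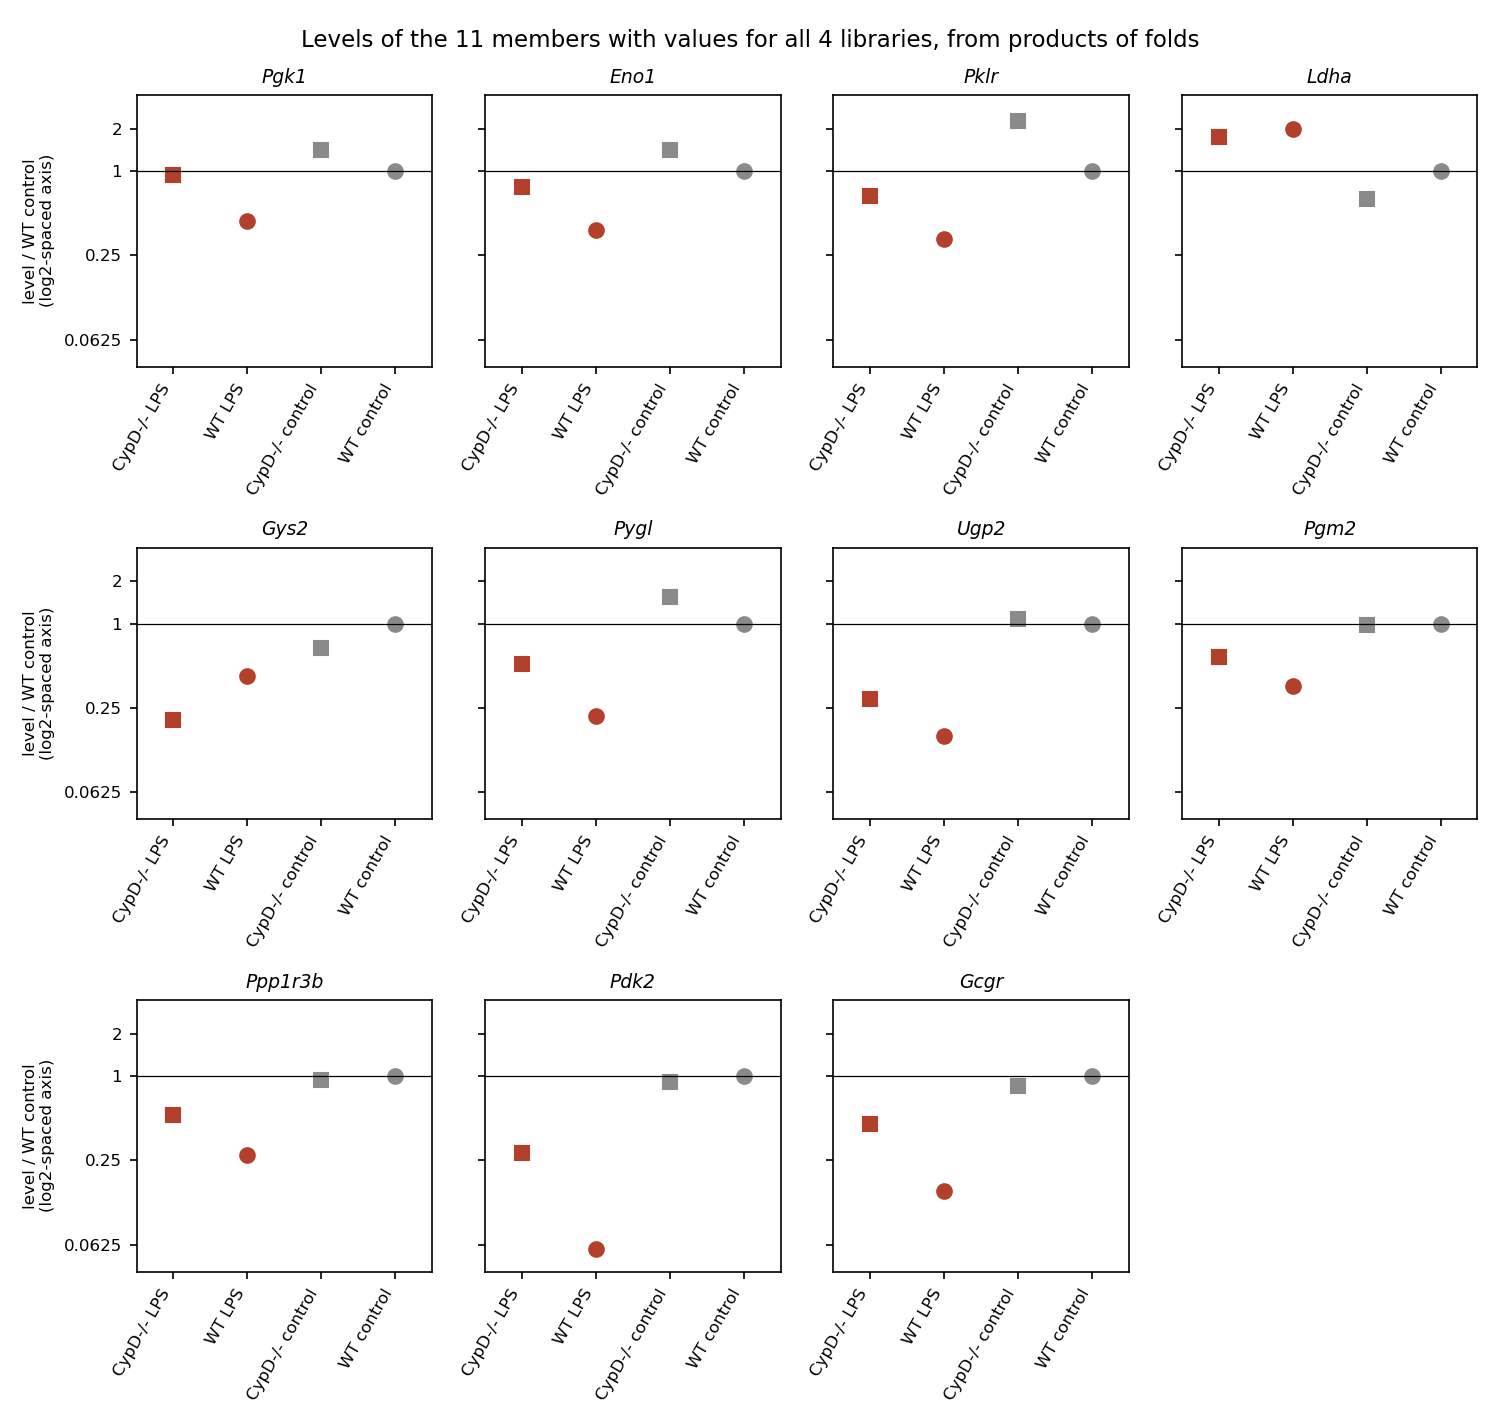
Levels of the 11 members that folds link to all 4 libraries, relative to untreated WT mice (WT control, set to 1) on a log2-spaced axis, from left to right in LPS-treated CypD-/-, LPS-treated WT, untreated CypD-/- and untreated WT mice. Squares are CypD-/- and circles WT libraries, red is LPS and grey untreated, and each point is 1 pooled library without an error; *Pdk2* reaches the lowest level, 0.0580 in LPS-treated WT mice.

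The sizes of the LPS folds were compared between the genotypes, whose LPS comparisons share no library. Members listed in both numbered 17, which is 81.0% of the 21 listed in CypD-/- mice and 60.7% of the 28 listed in WT mice, and none moved in opposite directions. Of all genes, 1259 are listed in both, 87.1% of those in CypD-/- and 44.3% of those in WT mice. Only 12 of these 1259 moved in opposite directions, so a shared direction was not particular to the members. The smaller fold was that of CypD-/- mice for 12 of the 17 members (70.6%) and for 84.6% of 1241 genes with finite folds of the same sign in both genotypes. Of 13 members that fell, 11 had the smaller fold in CypD-/- mice (84.6%, against 90.8% of all 885 such genes), and the exceptions were *Pklr* and *Gys2*. Of 4 that rose, 1 had the smaller fold in CypD-/- mice, *Pfkfb3*, and *Pkm*, *Ldha* and *Fbp1* had the larger, whereas 69.1% of all 356 such genes had the smaller fold. The median ratio of the WT to the CypD-/- fold was 1.48 for the members and 1.59 for all genes. It was largest for *Pdk2* (5.40), *Ppp1r3c* (4.74) and *Gcgr* (3.51).

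**Figure D4:**
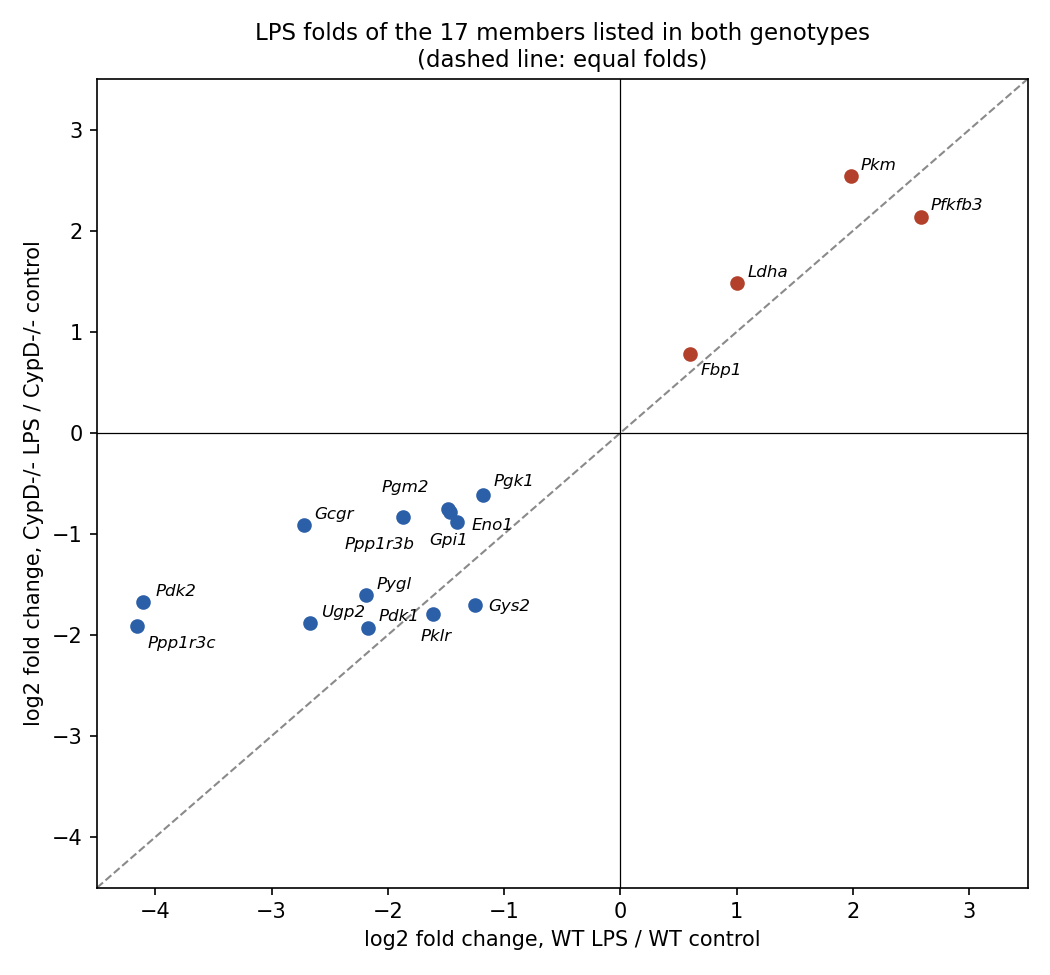
log2 fold change after LPS in CypD-/- mice (vertical axis) and in WT mice (horizontal axis) for the 17 members listed in both, with rises in red, falls in blue and a dashed line of equal folds. *Pdk2*, *Ppp1r3c* and *Gcgr* lie farthest from the line, with WT folds 5.40, 4.74 and 3.51 times those of CypD-/- mice.

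For 9 members listed in 3 comparisons, the fold of the remaining comparison follows from the others. All 9 derived folds were below the criterion of 1.5, from 1.03 to 1.49. The choice of these members largely fixed this, because a larger fold with a low q-value would have been listed. For 8 of the 9 members the derived comparison was that of the untreated groups, and for *Ldha* that of the LPS-treated groups. *Pklr* and *Pygl* are listed in all 4 comparisons, and both closed within 0.01 on the log2 scale. The 4 folds of a gene therefore come from 1 set of levels per library, and an unusual level in 1 library enters each fold that uses it.

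Isoforms were also grouped by where they predominate. Of 15 liver-predominant members, 2 rose and 6 fell after LPS in CypD-/- mice and 1 rose and 8 fell in WT mice, and 5 were higher and 1 lower in CypD-/- than in WT mice after LPS. As 12 of them are listed anywhere, the 8 that fell in WT mice are a share near the 62.1% of all listed genes. The 6 of 12 that fell in CypD-/- mice stand beside 32.1% of all listed genes. The 5 of 12 that were higher between the LPS-treated groups stand beside 19.1%. With 12 genes these shares are imprecise. Of 15 members that predominate in other tissues or are broadly expressed, 2 rose and 1 fell in CypD-/- mice and 2 rose and 2 fell in WT mice. As 4 of them are listed anywhere, a share would be imprecise. The 2 that rose in each genotype were *Pfkfb3* and *Pkm*, and 11 of these 15 are listed nowhere.

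Of 47 further enzymes and transporters of the same pathways, 18 are listed anywhere. Of these, 2 rose and 13 fell in each genotype, and 7 were higher and 3 lower in CypD-/- than in WT mice after LPS. Of all 3113 listed genes, 14.4% rose and 32.1% fell in CypD-/- mice, and 29.2% rose and 62.1% fell in WT mice. Between the LPS-treated groups, 19.1% of them were higher and 11.8% lower in CypD-/- mice. *Pdk4*, a starvation-induced kinase of pyruvate dehydrogenase, rose 18.9-fold in CypD-/- and 167-fold in WT mice, the direction opposite to *Pdk1* and *Pdk2*. *Slc2a2*, the glucose transporter of hepatocytes, fell 4.77-fold in CypD-/- and 12.9-fold in WT mice. *Sord*, sorbitol dehydrogenase, fell 4.39-fold in CypD-/- and 11.8-fold in WT mice. Of 9 genes of the pentose phosphate pathway, 1 fell in CypD-/- mice, and 1 rose and 4 fell in WT mice. As 5 of them are listed anywhere, a share would be imprecise. *Shpk* and *Pgls* fell 7.29- and 4.14-fold in WT mice. *Taldo1*, transaldolase, fell 1.61-fold in CypD-/- and 3.14-fold in WT mice.

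Of 33 regulators of hepatic glucose metabolism, 14 are listed anywhere. Of these, 4 rose and 4 fell in CypD-/- mice, beside 14.4% and 32.1% of all listed genes. In WT mice 5 rose and 7 fell, beside 29.2% and 62.1%. Between the LPS-treated groups, 3 were higher and 5 lower in CypD-/- mice, beside 19.1% and 11.8%. With 14 listed genes, shares would be imprecise. *Igfbp1*, an insulin-repressed secreted protein, rose 61.7-fold in CypD-/- and 55.1-fold in WT mice. It was 2.98-fold lower in CypD-/- than in WT mice without LPS, as *Pck1* and *G6pc* were lower there, and 2.66-fold lower after LPS. *Myc* rose 12.3-fold in WT mice but has no LPS fold in CypD-/- mice. *Srebf1*, a lipogenic factor activated by insulin, fell 3.14-fold in CypD-/- and 6.58-fold in WT mice. After LPS it was 3.11-fold higher in CypD-/- than in WT mice. *Hif1a*, the oxygen-regulated factor that binds the hypoxia response element, rose 2.92-fold in CypD-/- and 5.76-fold in WT mice. Between the LPS-treated groups it was 1.81-fold lower in CypD-/- mice.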

How the data were processed

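RNA of 3 animals per group was pooled into 1 library, depleted of ribosomal RNA and sequenced on a SOLiD instrument. The authors used CLC Genomics Workbench to map reads by strand to GRCm38, allowing a read up to 10 places. Several glycolytic genes, *Gapdh* and *Ldha* among them, have processed pseudogenes, so their reads may be split. The authors deposited 1 signed score per gene, the fold change between 2 libraries, negative where the first is lower, with the q-value of Kal's test. The deposited values include only genes past 1.5-fold and a q-value of 0.05. How libraries were normalized is not given in the sources used here. These authors' folds and q-values are the only values deposited in these files, so they were used as given and no test was added.

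The members and gene lists were chosen with earlier results of these data known. Every listed member is named. Of the further enzymes, pentose phosphate genes and regulators, up to 4 genes of largest fold are named, and some genes counted are not reported here by name. Levels are products of folds, and 4 folds were called closed within 0.01 on the log2 scale. The calculation was tested on simulated data. Positions are from GENCODE M21, promoters from RefSeq on GRCm38.p6. Python 3.11.15 and matplotlib 3.10.9 were used. Alternatives were a 2-fold threshold, a q-value of at most 0.001, matching with letter case, and subsets of the members with folds in both genotypes.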

Additional observations from a re-analysis of the deposited data

How the results depend on the processing

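At a threshold of 2-fold, the members that rose after LPS in CypD-/- mice numbered 3 and those that fell 9, and between the untreated groups 1 was higher and 1 lower in CypD-/- mice. With a q-value of at most 0.001, 7 members were higher and 1 lower in CypD-/- than in WT mice after LPS. The shares of all listed genes at these stricter cuts were not calculated. Of 10 members at 2-fold or more in both genotypes, 6 had the smaller fold in CypD-/- mice, and of 4 members that rose, 1. The other counts stayed within 1.5 times under these alternatives and under matching with letter case. With 1 library per group no library could be left out, so an error of 1 library cannot be told apart from a group difference. No paired analysis was possible because each group has 1 library. Depth is unknown, and folds just under 1.5 are not listed, so a gene listed in 1 genotype alone may differ little from the other.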
